A study of Mus musculus with 4 samples.

Results

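The Myb family motifs were 4 of the 1346 motif entries scored for chromatin accessibility in spleen regulatory T cells (Tregs), namely every entry whose factor symbol is Myb, Mybl1 or Mybl2. Myb has 2 entries, numbered 1529 and 1530 in the table, Mybl1 has entry 1535 and Mybl2 has entry 1526. CD4+ FOXP3+ cells came from the spleens of B6.Cg-Foxp3tm2Tch/J mice, labelled WT, in which GFP follows Foxp3 through an internal ribosome entry site, so that FOXP3+ cells carry the reporter in vehicle and venetoclax mice alike. The mice received either vehicle or 50 mg/kg venetoclax, a small-molecule inhibitor of the survival protein BCL-2, for 14 days, and each treatment gave 2 samples. The labels call these biological replicates and do not say whether a sample is 1 animal or a pool, nor give the age of the mice. ATAC-seq reads out which DNA a transposase can cut in nuclei. The authors' chromVAR deviation score is given for each motif and sample. It says whether peaks that hold the motif were more accessible (above 0) or less accessible (below 0) than expected. The expectation comes from the samples scored together, with a correction from background peaks, so 0 is relative to that set of samples.

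Myb, Mybl1 and Mybl2 are the vertebrate members of the Myb family, which bind DNA through closely related tandem Myb repeats and therefore recognise similar sequences. Myb keeps blood progenitors and developing T cells alive and dividing, and in Tregs it is needed for the step from resting to effector cells. Bcl2, whose product venetoclax inhibits, is among the genes that Myb is known to activate. Mybl1 is best known from meiosis in the testis and from germinal centre B cells. Mybl2 is present in nearly all dividing cells, where it joins the MuvB complex to switch on genes of the late cell cycle. A score belongs to a sequence motif, and neither the level nor the binding of the 3 proteins was measured here.

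The entries were selected by symbol, and the family was chosen by the score difference between venetoclax and vehicle in these same samples. The scores and differences that follow are therefore a description, and no test is attached to them. Each difference is venetoclax minus vehicle in score units, and its SE comes from a limma fit over all 1346 entries. In a bulk sample a change in the mixture of cells and a change within each cell cannot be told apart. The table holds no gene-level values, so the identity of the sorted cells was not checked against marker genes.

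In 3 of the 4 entries, Myb 1529, Mybl1 1535 and Mybl2 1526, both venetoclax samples scored above both vehicle samples, against 17.2% of all entries. The scores of these motifs were below 0 in every vehicle sample. For Myb 1529 and Mybl1 1535 they were above 0 in both venetoclax samples, and for Mybl2 1526 in venetoclax replicate 2 alone. Scores below 0 in both vehicle samples and above 0 in both venetoclax samples were found in 6.61% of all entries. The groups of Mybl2 1526 stood apart by only 0.044. The other Myb entry, 1530, was close to 0 in 3 of the 4 samples and its groups overlapped.

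Myb 1529 had the largest difference of the family. It scored -0.86 and -1.40 in vehicle replicates 1 and 2, and 0.44 and 2.16 in venetoclax replicates 1 and 2. All 4 pairings of a venetoclax with a vehicle sample were positive, from 1.29 to 3.56. The mean score was -1.13 ± 0.38 (SD, n = 2) with vehicle and 1.30 ± 1.22 (SD, n = 2) with venetoclax, which gives a difference of 2.42 (SE 0.74). Venetoclax replicate 2 was the high sample, and there Myb 1529 scored above 99.9% of all entries, against 65.0% in venetoclax replicate 1. In the vehicle samples it scored above 14.9% of entries in replicate 1 and 4.16% in replicate 2.

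The Mybl1 entry had the smallest SD within groups among the 3 entries whose groups stood apart, 0.554 against 0.904 for Myb 1529 and 1.33 for Mybl2 1526 (pooled over both groups). Its scores were -0.14 and -1.01 in vehicle replicates 1 and 2, and 1.03 and 1.71 in venetoclax replicates 1 and 2. The lowest venetoclax sample was 1.17 above the highest vehicle sample. Means were -0.58 ± 0.62 (SD, n = 2) with vehicle and 1.37 ± 0.48 (SD, n = 2) with venetoclax, and the difference was 1.94 (SE 0.70). Both venetoclax samples placed this motif high among all entries, above 86.1% of them in replicate 1 and 98.5% in replicate 2. In the vehicle samples it stood above 35.9% and 9.73%.

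The Mybl2 entry had the lowest vehicle mean of the family and the widest split between venetoclax samples. It scored -1.02 and -1.86 in vehicle replicates 1 and 2, and -0.98 and 1.54 in venetoclax replicates 1 and 2. Venetoclax replicate 1 was thus only 0.044 above vehicle replicate 1, and the separation of the groups rests on that margin. Vehicle averaged -1.44 ± 0.59 (SD, n = 2) and venetoclax 0.28 ± 1.78 (SD, n = 2), 1.72 score units apart (SE 0.80). The gap of 2.52 between the venetoclax replicates compares with a median gap of 0.842 over all entries, and 4.01% of entries had a wider one. Within its libraries the Mybl2 motif stood above 11.7% and 1.63% of entries with vehicle, and above 13.1% and 96.7% with venetoclax.

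The remaining Myb entry, 1530, did not separate the groups. It scored -1.27 and 0.16 in vehicle replicates 1 and 2, and -0.077 and -0.045 in venetoclax replicates 1 and 2. Both venetoclax samples lay between the vehicle samples, which were 1.42 apart. Vehicle averaged -0.56 ± 1.01 (SD, n = 2) and venetoclax -0.061 ± 0.022 (SD, n = 2). The difference of 0.50 (SE 0.72) was smaller than its SE.

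**Figure D1:**
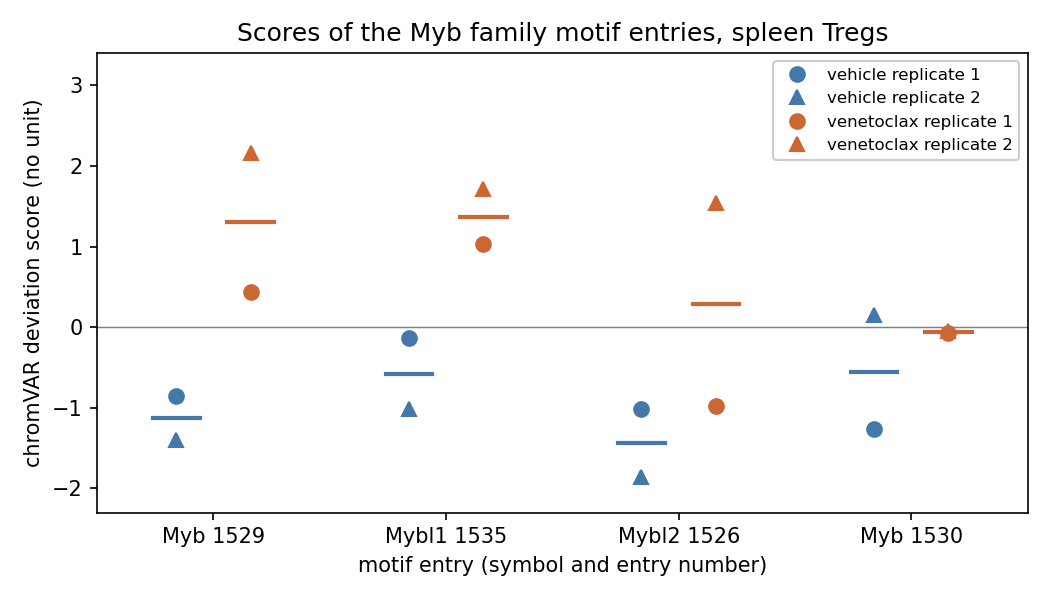
The chromVAR deviation score (vertical axis, no unit) is plotted for the 4 Myb family motif entries (horizontal axis) in each of the 4 samples, with vehicle in blue, venetoclax in orange, circles for replicate 1 and triangles for replicate 2. Horizontal bars are group means; the groups stand apart for Myb 1529 and Mybl1 1535, by a margin of 0.044 for Mybl2 1526, and not for Myb 1530.

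Set among all entries, 3 of the 4 Myb family differences lay in the upper tail. In the authors' deposited table, which ranks entries by the difference, Myb 1529 is at rank 6, Mybl1 1535 at rank 32, Mybl2 1526 at rank 62 and Myb 1530 at rank 328 of 1346. A higher difference was found in 0.372% of all entries for Myb 1529, in 2.30% for Mybl1 1535, in 4.53% for Mybl2 1526 and in 24.3% for Myb 1530. Of all entries, 38.7% had a difference above 0, as did 4 of the 4 Myb family entries. Both venetoclax samples were above both vehicle samples in 17.2% of all entries and in 3 of the 4 Myb family entries. Because the contrast helped to choose the family, nothing is read from these shares. The median difference was 1.83 over the family and -0.29 over all entries, so that the bulk of the table lay slightly below 0. Relative to each sample's median, the family median was 2.10.

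**Figure D2:**
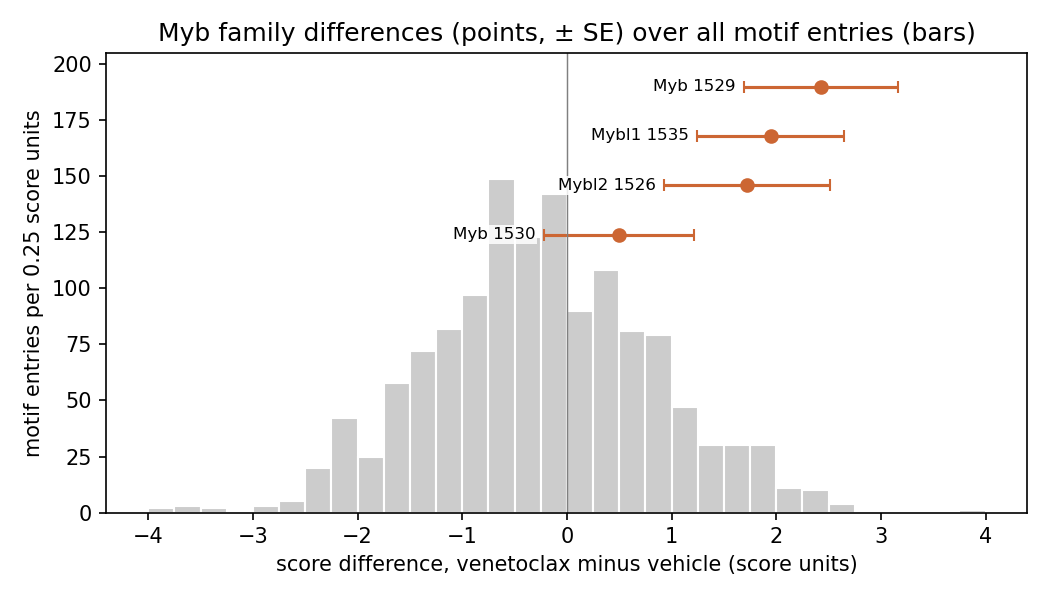
Grey bars count all 1346 motif entries by score difference, venetoclax minus vehicle (horizontal axis, score units), and orange points with bars give the 4 Myb family differences ± SE, placed at arbitrary heights. Myb 1529, Mybl1 1535 and Mybl2 1526 lie to the right of most entries at 2.42, 1.94 and 1.72, and Myb 1530 lies at 0.50.

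No entry of the table, Myb family or other, passed an adjusted p of 0.05 in limma (0 of 1346 entries, 0%). At an unadjusted p under 0.05 limma gave 246 entries, of which 86 were higher with venetoclax. A limma fit whose prior variance followed the mean and resisted outliers called 74 entries. Separately, the original limma fit without venetoclax replicate 1 called 337, so the count depends on the variance model and on that sample.

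Venetoclax replicate 2 had the highest score in 3 of the 4 Myb family entries, and leaving it out reduced the differences of Myb 1529 and Mybl2 1526 by over 1.5 times. Without it, the difference was 1.56 for Myb 1529, 1.61 for Mybl1 1535, 0.46 for Mybl2 1526 and 0.48 for Myb 1530. Without venetoclax replicate 1, the difference was 3.29 for Myb 1529 and 2.98 for Mybl2 1526. Leaving out vehicle replicate 1 moved Myb 1530 to -0.22, the opposite sign, and leaving out vehicle replicate 2 moved it to 1.21. Mybl1 1535 varied least, from 1.51 to 2.38 over the 4 samples left out in turn. Venetoclax replicate 2 also had the lowest median score over all entries, -0.28 against 0.093 to 0.18 in the other 3 samples. Myb 1529, Mybl1 1535 and Mybl2 1526 therefore scored high in a library whose scores were low as a whole, while Myb 1530 scored -0.045 there. The part of that library in the differences was tested no further than by leaving it out.

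**Figure D3:**
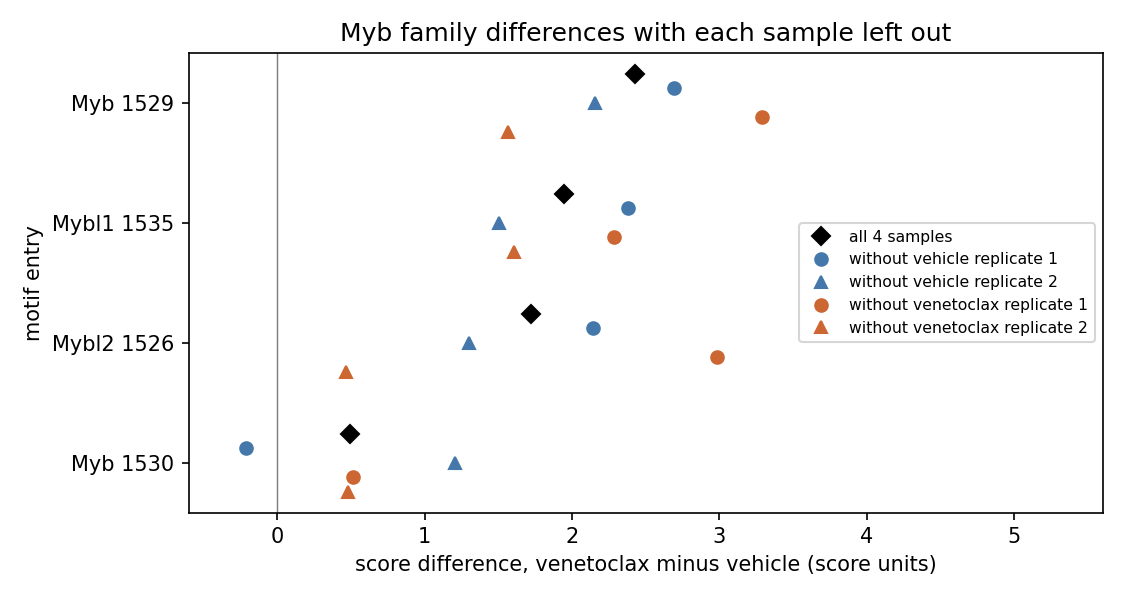
The score difference, venetoclax minus vehicle (horizontal axis, score units), is shown for each Myb family entry with all 4 samples (black diamonds) and with each sample left out in turn (blue for vehicle, orange for venetoclax, circles for replicate 1, triangles for replicate 2). Mybl1 1535 stays between 1.51 and 2.38, Mybl2 1526 ranges from 0.46 to 2.98, and Myb 1530 is the entry that crosses 0.

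The entries of the family were not copies of one another. No Myb family entry shared its 4 scores with another entry, although the table holds 976 distinct sets of 4 scores for 1346 entries. Likeness was measured as the Euclidean distance between the 4 scores of a pair of entries, with no test. Myb 1529 was at a distance of 1.10 from Mybl1 1535, and 1.71% of entries were nearer to it. It was at 1.62 from Mybl2 1526, with 5.28% of entries nearer. The second Myb entry, 1530, was further from Myb 1529 than either relative, at 2.78, with 30.2% of entries nearer. The pair of Myb entries parted most in venetoclax replicate 2, where 1529 minus 1530 was 2.21, and in vehicle replicate 2, where it was -1.55. The names of all 4 entries carry the mark D, a mark carried by 587 entries, whose meaning is not given in the sources used here.

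The split between the Myb entries was wide for a factor with 2 motifs. Their differences were 1.93 score units apart. Among the 95 symbols with exactly 2 entries the median gap was 0.818 and the widest 2.98, and 12 symbols had a wider gap than Myb. The Myb family was chosen by this difference, so nothing is read from the width of the split.

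Motifs outside the family that came closest to Myb 1529 over the 4 samples were those of Zeb1, a zinc finger repressor that binds E-boxes (distance 0.559), and of Thra and Thrb, the thyroid hormone receptors (0.625 for both, which have the same scores). Zfp128, a zinc finger protein, followed at 0.651. Id1 and Id2, inhibitors of E proteins that lack a DNA-binding region of their own, share 1 set of scores and tied at 0.662. All of these were nearer to Myb 1529 than Mybl1 was. The Zeb1 motif scored -1.07 and -1.58 in vehicle replicates 1 and 2, and 0.12 and 1.80 in venetoclax replicates 1 and 2. Its difference was 2.28 (SE 0.73), and those of the others ran from 1.95 for Id1 and Id2 to 2.70 for Thra and Thrb. With 4 samples and 1346 entries, close profiles of this kind are a description of these libraries.

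Few of the other proteins listed for their Myb or SANT type repeats had an entry in the table. Of 13 such factors listed, 3 had an entry, 1 with a positive and 2 with a negative difference, and the groups overlapped in all 3. Over all entries, both venetoclax samples were above both vehicle samples in 17.2% and below them in 31.1%. Cdc5l, a splicing factor with Myb repeats, differed by 0.26 (SE 0.70), and Mypop, a Myb-related repressor, by -0.041 (SE 0.69). Terf2, which binds telomere repeats through a single Myb-type domain, differed by -1.47 (SE 0.79). The differences of Cdc5l, Mypop and Terf2 lay below all 4 of the Myb family, but the family was chosen by this difference, so nothing is read from that order. The list was not complete, since it left out Smarcc1 and Smarcc2, which carry a SANT domain. The motif shared by Smarcc2 and a Smarcc1 entry differed by 1.75 (SE 0.70), above Mybl2 1526 at 1.72. Both venetoclax samples were above both vehicle samples for that motif. Another Smarcc1 motif differed by 0.88 (SE 0.74), and its groups overlapped.

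Motifs of the cell cycle factors that work with or beside Mybl2 differed in both directions. Each of them was below the Mybl2 motif in its difference, but the Myb family was chosen by that difference, so nothing is read from this order. The 12 factors listed, namely E2f1 to E2f8, their partners Tfdp1 and Tfdp2, the MuvB subunit Lin54 and Foxm1, had 15 entries with a median difference of -0.22, against -0.29 over all entries. Of these, 6 had a positive and 9 a negative difference, and 0 of the 15 had both venetoclax samples above both vehicle samples, against 17.2% of all entries. In 5 of the 15 both venetoclax samples were below both vehicle samples, as in 31.1% of all entries. Tfdp1 and Tfdp2, both among these 5, have the same scores, so the 15 entries hold 14 distinct sets. E2f4, a repressor E2f of resting cells, was the highest at 0.66 (SE 0.70). E2f8, an atypical repressor E2f, was the lowest at -1.67 (SE 0.69). Lin54 is the subunit through which MuvB binds DNA, and its motif scored 1.11 and 0.28 in vehicle replicates 1 and 2 and -0.21 and -0.20 in venetoclax replicates 1 and 2, a difference of -0.90 (SE 0.69). The sign was opposite to that of the Mybl2 motif. The groups did not overlap in either, but for Mybl2 1526 the margin was only 0.044. Lin54 was named after its values were seen, and no contrast between the 2 motifs was tested.

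Factors known to act next to Myb at blood cell genes went both ways. The 8 factors listed had 14 entries, 7 positive and 7 negative, with a median difference of 0.017. Motifs of the C/EBP factors, which switch on myeloid genes together with Myb, were found at both ends. A Cebpd motif differed by 1.84 (SE 0.74), and the motif shared by Cebpb and another Cebpd entry by 1.53 (SE 0.75). A further pair of Cebpd motifs differed by -1.56 (SE 0.69) and -1.30 (SE 0.73). The lowest were Spi1, the myeloid and B cell factor PU.1, at -2.15 (SE 0.68) and Gata3, a T cell factor, at -1.77 (SE 0.88). A second Spi1 motif was close to 0, at -0.086 (SE 0.68). The Cebpd motif with the highest difference scored -1.09 and -1.45 in vehicle replicates 1 and 2 and -0.34 and 1.49 in venetoclax replicates 1 and 2, and like Mybl2 1526 it was below 0 in 3 samples and above 0 in venetoclax replicate 2.

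Motifs of factors of Treg and effector Treg states also differed in both directions. The 7 factors had 10 entries, 4 positive and 6 negative, with a median of -0.56. In 3 of the 10 both venetoclax samples were above both vehicle samples, against 17.2% of all entries, and in 5 of the 10 they were below, against 31.1% of all entries. A pair of Batf motifs was highest, at 1.12 (SE 0.70) and 0.88 (SE 0.69), while the third Batf motif was at -0.88 (SE 0.69). Batf drives effector Treg programmes in tissues. Foxo1, a factor of resting T cells, was lowest at -3.80 (SE 0.84), followed by Irf4, an effector Treg factor, at -2.16 (SE 0.81). None of the entries in these 4 lists passed limma's adjusted p of 0.05. The lists are described by counts and medians only, so no difference between a list and the Myb family was tested.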

How the data were processed

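The authors deposited 1 table of chromVAR deviation scores, per the file's name, with 1346 motif entries for 802 symbols. The submitters' processing notes name Bowtie2, Picard, MACS2 and the mouse build mm10, without versions or roles. Not given in the sources used here are the chromVAR version, the peak set, the motif collection and the kind of score (z-score or deviation). The same holds for the set of samples scored together, on which chromVAR scores depend. The table has 12 sample columns; 8 match no described sample and were not used. Read depth is unknown, so no counting interval is given; precision rests on the spread between samples.

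Scores were used as deposited, without log, pseudocount or filter. The deposited differences equalled those computed here within 1e-09. Venetoclax and vehicle were compared with limma 3.58.1 in R 4.3.3 (lmFit, eBayes, two-sided, Benjamini-Hochberg adjustment over all entries), without the replicate number. The same step was run on simulated scores with independent noise. The changes put in were larger than any Myb family difference with all 4 samples, so smaller changes were not covered. SEs are limma's, which pool the spread over entries. Summaries used Python 3.11.15 and pandas 2.3.3. Entries were assigned by the symbol in their name, with 1 listed factor (Spi1) found by an older symbol in RefSeq names of GRCm38.p6. All entries of the Myb family are given. Outside it, the text names the 5 symbols nearest to Myb 1529, with a tie at the fifth, and up to 2 entries at each end of 4 lists. Lin54, the third Batf motif, the second Spi1 motif, a pair of lower Cebpd motifs and the Smarcc1 and Smarcc2 motifs were named after their values were seen. Members, lists and rules were chosen with earlier results of these data known. Alternatives were each sample left out, the replicate number as a block, a trended and robust variance, other scalings and 1 entry per distinct set of scores. Sequences of the motifs were not used here.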

Additional observations from a re-analysis of the deposited data

How the results depend on the processing

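The Myb family median difference of 1.83 ranged from 1.02 without venetoclax replicate 2 to 2.63 without venetoclax replicate 1, and from 2.08 to 2.25 under the 3 other scalings (centring, centring with division by the SD, quantile normalization). It was 1.72 with 1 value per symbol. Leaving out 1 sample at a time gave 1.56 to 3.29 for Myb 1529, 1.51 to 2.38 for Mybl1 1535, 0.46 to 2.98 for Mybl2 1526 and -0.22 to 1.21 for Myb 1530. Myb 1530 was negative without vehicle replicate 1, which left 3 of the 4 entries positive; the other settings named here left 4 positive. The number of entries called over the whole table ranged from 0 to 337 with a sample left out, the latter without venetoclax replicate 1, a fit that assumes the lone venetoclax sample varies like the vehicle samples. It was 74 with a trended and robust variance (26 higher, 48 lower). The cause of these changes was not tested. Same-numbered samples tended only weakly to deviate in opposite directions (r = -0.27 across entries). With the replicate number as a block limma called 0 entries, and 0 with the numbers crossed, a pairing chosen after seeing the data. Depth limits cannot be stated, since the scores carry no counts.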
